A study of Mus musculus with 6 samples.

Results

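The miR-181 family of the mouse heart is described here from the sense rows named Mir181a-1, Mir181a-2, Mir181b-1, Mir181b-2, Mir181c and Mir181d in 6 deposited count files. These 6 hairpin genes, of 683 listed, gave 12 of 1026 sense rows, since both arms of each hairpin have a row, and all 12 had at least 1 read over the 6 libraries. No antisense row (0) was listed at these hairpins. The members were chosen by name. The series has 1 group. It holds cardiac tissue from C57BL/6J males that were wild type and 18 weeks old, with 1 small RNA library for each of 6 samples, called heart 1 to heart 6 after the number in the labels. No treatment, allele or other strain was compared, and the labels call the tissue whole heart while the extraction text speaks of frozen apexes of the ventricles. Library totals ran from 3966169 to 6007322 counts. Values below are read counts, or counts per 1000000 counts of the library (CPM), with mean ± SD over the 6 hearts. The labels mention no molecular identifiers, so intervals on counts cover counting error only.

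MicroRNAs are small RNAs cut from the 5p or the 3p arm of a hairpin, and they guide Argonaute proteins to messenger RNAs that pair with the seed, bases 2 to 8 of the small RNA. miRNAs of one seed are grouped in a family because they can pair with the same sites. The miR-181 hairpins lie in 3 clusters of 2, an a-type or c-type hairpin followed by a b-type or d-type hairpin. miR-181a is known for tuning T-cell receptor signalling in developing lymphocytes, miR-181b for restraining NF-kB signalling in vascular endothelium, and miR-181c for reaching the mitochondria of heart muscle cells, where it acts on a mitochondrially encoded subunit of cytochrome c oxidase. In bulk tissue, fewer cells of a type and less RNA per cell cannot be told apart.

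The 5p arms are shown first because they carried nearly all reads and define the family. The capitals mark the seed, ACAUUCA, which all 4 share and which no other of the 1738 mature entries in the RefSeq table (GRCm38.p6) holds.
miR-181a-5p: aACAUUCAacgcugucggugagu
miR-181b-5p: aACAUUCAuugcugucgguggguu
miR-181c-5p: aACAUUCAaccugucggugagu
miR-181d-5p: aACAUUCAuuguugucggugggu
Counted from 1 at the 5′ end, miR-181b-5p differs from miR-181a-5p by A9U, C10U and A21G and is 1 base longer, and miR-181d-5p differs from miR-181b-5p by C12U and lacks its last base. miR-181c-5p is miR-181a-5p without the G at position 11. The differences thus lie outside the seed. The copies of miR-181a-5p on chromosomes 1 and 2 have the same sequence, and so do those of miR-181b-5p, so their reads were summed over the copies unless stated otherwise.

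The 3p arms are shown because, in contrast to the 5p arms, they tell the loci apart.
miR-181a-1-3p: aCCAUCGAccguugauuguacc
miR-181a-2-3p: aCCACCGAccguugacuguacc
miR-181c-3p: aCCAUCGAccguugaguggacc
miR-181b-1-3p: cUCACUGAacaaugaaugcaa
miR-181b-2-3p: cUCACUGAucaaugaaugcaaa
miR-181d-3p: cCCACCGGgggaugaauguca
The 3p arms fall into 4 seeds, again in capitals. miR-181a-1-3p and miR-181c-3p share 1 seed, both miR-181b 3p arms share another, and miR-181a-2-3p and miR-181d-3p each have their own. miR-181a-2-3p differs from miR-181a-1-3p by U5C, inside the seed, and by U16C. miR-181b-2-3p differs from miR-181b-1-3p by A9U and has 1 more base at its 3′ end.

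On GRCm38, Mir181a-1 spans chr1:137966455-137966541 and Mir181b-1 chr1:137966639-137966718, both on the plus strand and 97 bases apart. Both lie in an intron of the noncoding gene Gm4258 on the same strand and in one of the long intergenic RNA Gm26936 on the opposite strand, and Mir181b-1 also in an exon of the long intergenic RNA A430106G13Rik. Mir181a-2 (chr2:38852735-38852810) and Mir181b-2 (chr2:38853830-38853918) are 1019 bases apart on the plus strand, within an intron of Nr6a1, an orphan nuclear receptor gene transcribed from the opposite strand. Mir181b-2 also overlaps an exon of Gm44144 on that strand. Mir181c (chr8:84178873-84178961) and Mir181d (chr8:84178716-84178787) are 85 bases apart on the minus strand, in an intron of a Nanos3 transcript on the same strand. Nanos3 encodes an RNA-binding protein of the germ line. The files place 8 of the 12 mature arms exactly where RefSeq does. They place miR-181a-2-3p 3 bases further 3′ and end both miR-181b 5p arms 1 base and miR-181b-1-3p 2 bases earlier, so these rows need not hold the same reads as the sequences above.

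The family held 1.13% ± 0.125 of all counts, of which 96.1% ± 0.296 came from the 5p arms. miR-181a-5p led it. It stood at 7362, 7715, 9229, 8590, 9611 and 10363 CPM in hearts 1 to 6, a mean of 8812 ± 1147 CPM and rank 20 of 1004 mature miRNAs. Hearts 1 and 2 were the lowest and heart 6 the highest, 1.41-fold above heart 1. miR-181c-5p stood at 1599, 1294, 1435, 1378, 1556 and 1343 CPM in the same order, a mean of 1434 ± 121 CPM and rank 47. Here heart 1 was the highest and heart 2 the lowest, 1.24-fold apart. miR-181b-5p stood at 355, 392, 478, 439, 423 and 547 CPM, a mean of 439 ± 67.6 CPM and rank 74. Its extremes were the same hearts as those of miR-181a-5p, heart 1 and heart 6. miR-181d-5p stood at 200.4, 204, 221, 213, 219 and 239 CPM, a mean of 216 ± 13.9 CPM and rank 97, and its lowest and highest hearts were again 1 and 6. The order of the lower hearts depends on the scaling. After TMM scaling, miR-181d-5p (198 CPM) and miR-181c-5p (1278 CPM) were lowest in heart 4. There miR-181a-5p was lower in heart 4 (7967 CPM) than in heart 2 (8043 CPM). Heart 1 stayed the lowest for miR-181a-5p and miR-181b-5p.

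The ranges of the 4 mature 5p arms over the hearts did not overlap. Of the family's 5p reads, miR-181a held 80.7% ± 1.85, miR-181c 13.3% ± 1.97, miR-181b 4.02% ± 0.303 and miR-181d 1.99% ± 0.106.

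**Figure D1:**
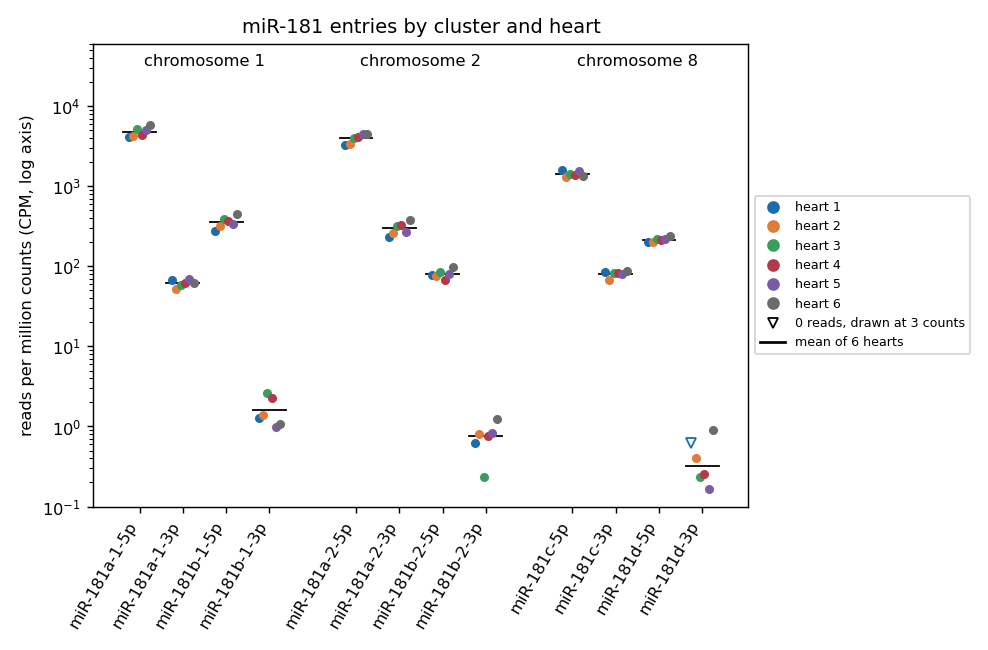
Level of each of the 12 miR-181 rows in CPM on a log axis, by cluster. Dots are single hearts, the line is the mean of 6, and the triangle marks 0 reads of miR-181d-3p in heart 1 drawn at 3 counts. The 5p rows of miR-181a have means of 4820 and 3991 CPM, and the 3p rows of miR-181b and miR-181d means of 1.60 CPM and less.

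These differences were tested as ratios within each library, with the library as a block, in 1 edgeR quasi-likelihood fit together with the arms of all 213 hairpins, and p-values were adjusted over all of its rows by the Benjamini-Hochberg method. A ratio counted as called if it reached 2-fold with an adjusted p under 0.05. miR-181a-5p was 6.12-fold above miR-181c-5p (log2 ratio 2.61 ± 0.10, SE), and the ratio of counts ranged between 4.60 (heart 1) and 7.72 (heart 6). The same arm was 20.1-fold above miR-181b-5p (log2 ratio 4.33 ± 0.10, SE) and 40.6-fold above miR-181d-5p (5.34 ± 0.11, SE). miR-181c-5p was 6.63-fold above miR-181d-5p, and miR-181b-5p was 0.304 times miR-181c-5p. Each of these held in 6 of 6 hearts. miR-181b-5p was 2.02-fold above miR-181d-5p (log2 ratio 1.01 ± 0.10, SE), higher in 6 of 6 hearts, with ratios from 1.77 in heart 1 to 2.29 in heart 6. That ratio lies at the 2-fold limit, and without heart 3 or heart 6 its log2 value was 0.99 or 0.97 and the call was lost. All 6 pairs passed the p threshold, the largest adjusted p being 2.68e-22 for this last pair. Such small values rest on a spread that edgeR pooled over the rows of the fit. With an exact permutation of the signs of the 6 log2 ratios, two-sided, the smallest p that 6 hearts allow is 0.03125, and all 6 pairs reached it (adjusted p = 0.0333). Adapters were ligated to both RNA ends, per the labels, and ligation is known to favour some ends, so a ratio between different miRNAs is one of reads and need not be one of molecules.

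Each hairpin gave more 5p than 3p reads, to very different degrees. Hairpins that share a name apart from the copy number were summed here, also where their 3p arms differ. In the same fit 104 of 213 hairpins were called with more 5p reads, a background of 48.8%, and 87 with more 3p reads, 40.8%, so the direction of the 4 members is the commoner one and their count is small. miR-181a gave 24.4-fold more 5p reads (log2 ratio 4.61 ± 0.11, SE), and 3.94% ± 0.326 of its reads came from the 3p arms. miR-181c gave 17.7-fold more (4.14 ± 0.11, SE), with 5.37% ± 0.453 from the 3p arm. miR-181b gave 188-fold more (7.55 ± 0.16, SE), with 68 reads of 3p against 13002 of 5p over all libraries. miR-181d gave 6402 reads of 5p and 10 of 3p, a ratio of 640.2 (exact binomial 95% interval 348 to 1336). All 4 were called, with the largest adjusted p 1.67e-192 for miR-181c under the same pooled spread, and 5p exceeded 3p in 6 of 6 hearts.

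With copies summed, miR-181a and miR-181c, whose 5p arms differ by the 1 base given above, had a share of 3p reads above the 2.35% that was the median of the 104 hairpins called with more 5p, and miR-181b and miR-181d a share below it. For miR-181a this holds for the sum and not for each copy. As the files divide the reads, the 3p share was 1.28% ± 0.218 for Mir181a-1, below that median in each heart, and 6.98% ± 0.791 for Mir181a-2. Among the 104, 62 had a lower 3p share than miR-181a and 68 a lower one than miR-181c, against 29 for miR-181b and 17 for miR-181d. miR-181d-3p had 0, 2, 1, 1, 1 and 5 reads in hearts 1 to 6. The absence of reads in heart 1 allows up to 0.630 CPM, within the range of the other hearts.

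**Figure D2:**
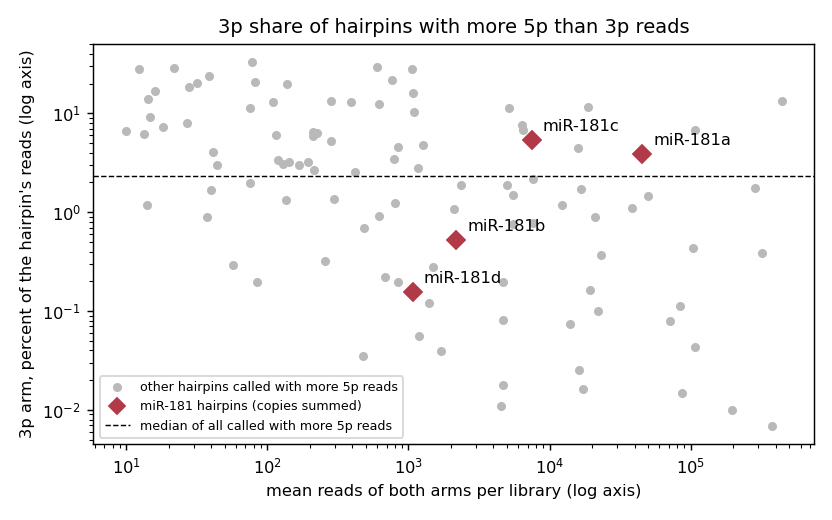
Share of 3p reads in each of the 104 hairpins called with more 5p reads (log axis) against the mean reads of both arms per library (log axis). Diamonds are the miR-181 hairpins with copies summed, and the dashed line is the median of 2.35%. miR-181a and miR-181c lie above the line, and miR-181b and miR-181d below it.

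The locus-specific 3p arms were used to compare the clusters. miR-181a-2-3p, from chromosome 2, stood at 235, 264, 318, 331, 266 and 383 CPM in hearts 1 to 6, a mean of 299.5 ± 54.6 CPM. miR-181a-1-3p, from chromosome 1, stood at 68.3, 51.5, 58.7, 61.3, 69.7 and 61.4 CPM, a mean of 61.8 ± 6.64 CPM. The 2 copies did not overlap, and miR-181a-2-3p was 4.80-fold higher (log2 ratio 2.26 ± 0.11, SE, higher in 6 of 6 hearts, edgeR adjusted p = 3.62e-76, exact sign permutation adjusted p = 0.0333). miR-181c-3p, from chromosome 8, stood at 85.5, 68.5, 83.8, 82.2, 80.1 and 86.9 CPM, a mean of 81.1 ± 6.67 CPM. It lay between those 2 in each heart.

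Summed over both hairpins, the chromosome 2 cluster held 67.1% ± 4.23 of the family's 3p reads, the chromosome 8 cluster 18.5% ± 1.92 and the chromosome 1 cluster 14.4% ± 2.39. The chromosome 2 cluster was 4.69-fold above that of chromosome 1 (log2 ratio 2.23 ± 0.11, SE, 6 of 6 hearts, edgeR adjusted p = 1.22e-74). It was 3.65-fold above that of chromosome 8 (log2 ratio 1.87 ± 0.11, SE, 6 of 6 hearts, edgeR adjusted p = 8.05e-58). The clusters of chromosomes 8 and 1 were closer, 1.29-fold (log2 ratio 0.36 ± 0.11, SE), with chromosome 8 higher in 6 of 6 hearts and ratios from 1.13 to 1.41. That difference passed the p threshold (edgeR adjusted p = 0.00152) and stayed under 2-fold. The a-type or c-type hairpin made up nearly all of each sum. miR-181a-2-3p was 373-fold above miR-181b-2-3p, miR-181a-1-3p was 39.7-fold above miR-181b-1-3p, and miR-181c-3p was 239.5 times miR-181d-3p in summed reads (exact binomial 95% interval 130 to 500). A 3p level depends on how a hairpin is transcribed, cut and loaded and how its ends are ligated, so these sums are not a measure of transcription of the clusters.

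The b-type copies leaned the other way. miR-181b-1-3p had 6, 7, 11, 9, 6 and 6 reads in hearts 1 to 6, 45 in all, and miR-181b-2-3p had 3, 4, 1, 3, 5 and 7, or 23 in all. The chromosome 1 copy held 66.2% of these 68 reads (exact binomial 95% interval 53.7 to 77.2), and it was the higher copy in 5 of the 6 hearts but not in heart 6. The log2 ratio of chromosome 2 to chromosome 1 was -0.95 ± 0.39 (SE, edgeR adjusted p = 0.0170), which missed the 2-fold limit. It passed both limits without heart 5 (-1.09) or heart 6 (-1.25), and without heart 3 (-0.62) the edgeR adjusted p was 0.150. With DESeq2 the adjusted p was 0.0625, so the b-type order is weakly measured at these few reads.

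The identical 5p reads were divided between the copies in the deposited files, for miR-181a in another proportion than the 3p arms. Of the miR-181a-5p reads, 54.7% ± 2.08 were counted on the chromosome 1 copy (4820 ± 660 CPM there and 3991 ± 547 CPM on chromosome 2), against 17.4% ± 3.41 of the miR-181a 3p reads. Of the miR-181b-5p reads, 81.5% ± 2.16 were counted on the chromosome 1 copy (358 ± 60.3 CPM against 80.5 ± 10.6 CPM). The miR-181b 3p reads leaned to the same copy, with 66.3% ± 15.9 on chromosome 1 and a range from 46.2% in heart 6 to 91.7% in heart 3. A read of miR-181a-5p that starts at the mature 5′ end must be at least 28 bases long to differ between the copies, and one of miR-181b-5p 25 bases. How the authors divided reads that match both loci is not given in the sources used here, so the 5p shares by locus are uncertain.

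**Figure D3:**
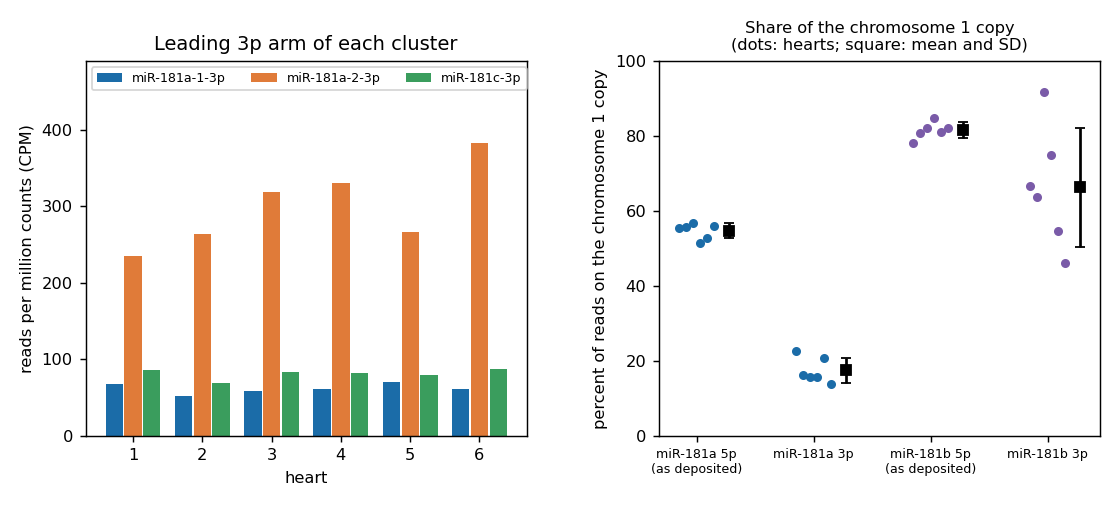
Left, level of the leading 3p arm of each cluster in CPM for each heart, with bars from 0. Right, percent of reads on the chromosome 1 copy for the miR-181a and miR-181b arms, with dots for hearts and a square with bar for mean and SD. miR-181a-2-3p is the tallest bar in each heart, and the chromosome 1 copy holds 54.7% of miR-181a-5p as deposited and 17.4% of the 3p reads.

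The members differed in how they varied between hearts. Of 355 mature miRNAs that averaged 10 reads or more, 256 varied more than counting allows, a background of 72.1% (chi-square test of the 6 counts against library totals, adjusted p under 0.05), and among the 213 that averaged 100 reads or more 90.1% did so. All 7 members that could be tested averaged over 100 reads and were called, which is near that background, with the largest adjusted p 0.0250 for miR-181c-3p. The 3p arms of miR-181b and miR-181d had too few reads for this test. The CV after TMM scaling was 18.5% for miR-181a-2-3p, 16.3% for miR-181b-5p, 13.1% for miR-181a-5p, 10.5% for miR-181a-1-3p, 9.29% for miR-181c-5p, 9.23% for miR-181c-3p and 7.76% for miR-181d-5p. The median of the 213 was 12.3%, and 34 of them had a lower CV than miR-181d-5p. Single hearts carried part of this. Without heart 6 the CV was 11.6% for miR-181a-2-3p, 9.64% for miR-181b-5p and 4.02% for miR-181d-5p, which was then no longer called (adjusted p = 0.119). Without heart 1 the CV of miR-181c-5p was 5.94%. Without heart 2, miR-181a-1-3p (adjusted p = 0.154) and miR-181c-3p (adjusted p = 0.768) were no longer called.

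Ratios inside the family also varied between hearts. The ratio of miR-181a-5p to miR-181c-5p was 4.60, 5.96, 6.43, 6.23, 6.18 and 7.72 in hearts 1 to 6. It varied beyond counting (chi-square test of the 2 by 6 table, adjusted p = 9.77e-189 over all rows). So did every other ratio between the 5p arms. By the same test their adjusted p ran from 2.13e-75 for miR-181b-5p to miR-181c-5p up to 0.000189 for miR-181a-5p to miR-181d-5p. Likewise the ratio of miR-181a-2-3p to miR-181a-1-3p was 3.44 in heart 1 and 3.81 in heart 5, and between 5.12 and 6.24 in the others (adjusted p = 2.17e-13). The ratio of the 3p sums of chromosome 2 and chromosome 8 varied (chi-square adjusted p = 1.45e-07), as did that of chromosome 2 and chromosome 1 (adjusted p = 4.61e-13). The ratio of the 3p sums of chromosome 8 and chromosome 1 was not shown to vary (adjusted p = 0.421), at 2405 and 1880 reads in all. The 5p to 3p ratio of miR-181a varied from 21.9 in heart 4 to 28.6 in heart 5 (adjusted p = 3.91e-13) and that of miR-181c from 15.4 in heart 6 to 19.4 in heart 5 (adjusted p = 0.0186). The ratios of miR-181b (adjusted p = 0.870) and miR-181d (adjusted p = 0.403) were not shown to vary at their few 3p reads. Over the series, 64 of 168 hairpins with enough reads had a 5p to 3p ratio that varied, 38.1%. Such a share was not computed for ratios between different miRNAs, so their varying is not shown to be particular to the family. Of the miRNAs that averaged 100 reads or more, 90.1% varied beyond counting by themselves. The test of ratios was added after the counts had been seen.

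**Figure D4:**
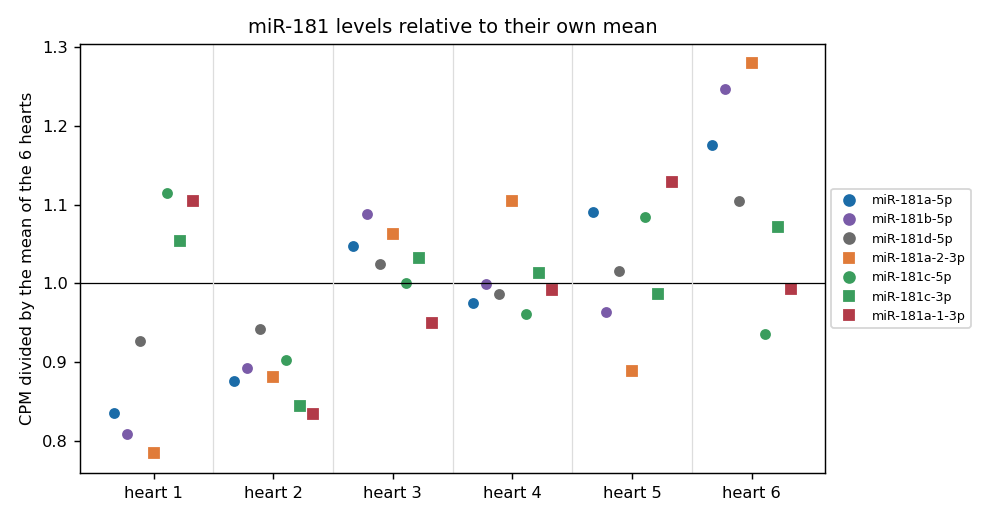
Level of 7 miR-181 arms in each heart divided by the mean of the 6 hearts, where 1 is that mean, with circles for 5p and squares for 3p arms. In heart 1, miR-181a-5p, miR-181b-5p and miR-181a-2-3p lie at the bottom while miR-181c-5p and miR-181a-1-3p lie above 1, and in heart 6 the first 3 lie at the top.

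Marker lists of other cells shared some of their extreme hearts and differed in others. The sum of the 4 leukocyte markers was 2827, 2661, 2373, 2714, 2033 and 2061 CPM in hearts 1 to 6, highest in heart 1 and lowest in heart 5. Its members differed among themselves. miR-142a-5p, miR-142a-3p and miR-223-3p were highest in heart 1 (1667, 139 and 176 CPM) and lowest in heart 6 (906, 54.6 and 109 CPM), the hearts with the lowest and the highest miR-181a-5p. miR-150-5p, a lymphocyte miRNA, stood at 846 CPM in heart 1 and 992 CPM in heart 6, with its highest value, 1236 CPM, in heart 4 and its lowest, 783 CPM, in heart 5. The erythroid list of miR-451a and miR-144-3p was highest in heart 1 at 5691 CPM and stood at 2396 CPM in heart 6, with its lowest value, 2176 CPM, in heart 4. Most of that sum was miR-451a, while miR-144-3p was highest in heart 2 (533 CPM) and lowest in heart 6 (225 CPM). The endothelial list ran from 83979 CPM in heart 3 to 97257 CPM in heart 4, and the smooth muscle list of miR-143-3p and miR-145-5p from 65604 CPM in heart 4 to 113480 CPM in heart 5. Nearly all of the smooth muscle sum was miR-143-3p (mean 88965 CPM). Its other member, miR-145-5p, was also highest in heart 5 (1015 CPM) but lowest in heart 6 (558 CPM), with 780 CPM in heart 4. All 5 heart muscle markers were present in every library and summed to between 94316 CPM (heart 5) and 106582 CPM (heart 4), most of it miR-133a-3p. In heart 5 miR-133a-3p, miR-208a-3p and miR-499-5p had their lowest values, but miR-1a-3p (8709 CPM) and miR-208b-3p (189 CPM) their highest. The neural list of miR-124-3p and miR-9-5p summed to between 19.3 and 25.8 CPM. The part of these cells in the spread of the miR-181 members was not tested.

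Neighbours in a cluster were not shown to vary together. Over 266 pairs of rows from different hairpins within 10 kb on one strand, 0 passed an adjusted p of 0.05, a background of 0.0%. By the exact permutation test of Pearson's r (two-sided, n = 6), 31 of the 266 pairs lay under 0.05 before adjustment. The median r was 0.35 over all 266 pairs and 0.49 over the 6 miR-181 pairs, so most values were positive. A single pair could not have passed, since the smallest p from 720 arrangements, 0.00139, becomes 0.369 if it stands alone. Of the 6 miR-181 pairs, 1 lay under 0.05 before adjustment. miR-181a-1-5p and miR-181b-1-5p, as divided in the files, had r = 0.87 (exact permutation p = 0.0264, adjusted p = 0.397). Their rho was 0.60 (exact p = 0.242, adjusted p = 0.712), and without hearts 4 and 6 their r was 0.93. miR-181a-1-3p and miR-181b-1-5p had r = -0.23 (exact permutation p = 0.664, adjusted p = 0.852) with a rho of -0.43 (exact p = 0.419, adjusted p = 0.780), and r was 0.00 without hearts 1 and 2. For miR-181c-5p and miR-181d-5p r was 0.01 (exact permutation p = 0.979, adjusted p = 0.990) with a rho of 0.03 (exact p = 1.0), for hairpins 85 bases apart, and r was -0.47 without hearts 4 and 6. miR-181d-5p and miR-181c-3p had r = 0.58 (exact permutation p = 0.224, adjusted p = 0.593) with a rho of 0.43, and r was 0.08 without the same hearts. For miR-181a-2-5p and miR-181b-2-5p r was 0.47 (exact permutation p = 0.344, adjusted p = 0.708) with a rho of 0.31, and 0.12 without hearts 1 and 6. miR-181a-2-3p and miR-181b-2-5p had r = 0.50 (exact permutation p = 0.279, adjusted p = 0.663) with a rho of 0.49 (exact p = 0.356), and without hearts 1 and 6 r was -0.06. The hearts left out were those farthest from the median of the first-named miRNA, which narrows its range. The fall of the last 3 positive values thus cannot show that they rest on those hearts. Without single hearts, r of miR-181d-5p with miR-181c-3p stayed between 0.25 and 0.82. That of miR-181a-2-5p and that of miR-181a-2-3p with miR-181b-2-5p turned negative without heart 6 (-0.074 and -0.20).

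The 3 miRNAs outside the family most like each 5p arm, by Pearson's r of log2 level over the 6 hearts, are named without a test. They come from 206 that averaged 100 reads or more, with miR-181 members left out. Among the members, miR-181a-5p had r = 0.91 with miR-181b-5p and 0.87 with miR-181d-5p, and miR-181b-5p had 0.90 with miR-181d-5p. With miR-181c-5p these 3 arms had r = -0.14 (miR-181a-5p), -0.34 (miR-181b-5p) and 0.01 (miR-181d-5p). Outside the family, let-7d-3p came first for 3 of the 4 arms, with r = 0.89 for miR-181a-5p, 0.97 for miR-181b-5p and 0.93 for miR-181d-5p. The next for miR-181a-5p were miR-148a-3p (r = 0.84) and miR-204-5p (r = 0.79). For miR-181b-5p they were miR-423-3p (r = 0.91) and miR-22-3p (r = 0.83), and for miR-181d-5p miR-423-3p (r = 0.88) and miR-30c-2-3p (r = 0.87). A different set stood nearest to miR-181c-5p, namely miR-152-5p (r = 0.95), miR-103-3p (r = 0.90) and let-7i-3p (r = 0.90). The 6 points of each r share their libraries and scaling, and each name is the highest of 206 values.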

How the data were processed

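Small RNA libraries of 6 hearts were analysed as 1 group. The deposited values are whole-number read counts per mature arm and locus, not normalized. The submitters' processing notes name GRCm38 as build and list DESeq and edgeR with no stated use. For the aligner, the counting program and reads with several matching loci, the step is not given in the sources used here. Of 1102 rows, 76 are antisense. Of these, 37 were assigned to a hairpin that GENCODE vM21 places on the opposite strand, and the other 39 (at most 0.000725% of a library) were left out. Copies with the same mature sequence were summed. For the 5p to 3p comparison, hairpins that share a name apart from the copy number were summed, also where their 3p arms differ. With each locus as listed, 117 hairpins were called with more 5p reads and 93 with more 3p. Library totals of 3966169 to 6007322 counts put 10 reads at 1.66 to 2.52 CPM. Ratios were fitted with edgeR 4.0.16 (R 4.3.3), with DESeq2 1.42.0 as an alternative. TMM scaling used miRNAs that averaged 10 reads or more, and log2 CPM a prior count of 1. SEs are the log2 ratio over the root of the F statistic. The fits were also run on simulated counts with a fixed spread and smaller ratios than most given here, and the outcome is not reported. Named miRNAs are all members and the 3 outside the family most like each 5p arm. Members, lists, tests and alternatives were chosen with earlier results of these data known. The p-values concern only the spread between these samples, which may be partly technical.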

Additional observations from a re-analysis of the deposited data

Results flagged for a closer look

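Levels and ratios of the family were checked for a heart far from the other 5, which chance alone gives in about 1 group of 20. Of 43 values listed for this check, 2 had such a heart. The 5p to 3p ratio of miR-181d and the ratio of miR-181c-3p to miR-181d-3p are among the 43. They have no finite value in heart 1 and were not checked. miR-181c-3p stood at 68.5 CPM in heart 2, below the 80.1 to 86.9 CPM of the other hearts. The ratio of miR-181a-2-3p to miR-181b-2-3p was 1345 in heart 3, where miR-181b-2-3p had 1 read.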

How the results depend on the processing

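Of 241 alternative values of the main comparisons, 237 were labelled as kept, and of 273 for single miRNAs 263 were. The alternatives cover DESeq2, no replicate block, no filter on low counts, each locus as listed, other scaling, and leaving out single hearts or hearts 4 and 5. For the 14 ratios between miR-181 arms or clusters they also hold the exact sign permutation. In 13 of these every heart had the same direction, which by itself gives the smallest p possible there. A ratio or correlation was kept with the same direction and side of the threshold, a spread with the same call, and a count of calls if similar. A level was kept if its mean moved by less than its SD, which leaving out a single heart cannot reach. Correlations could hardly change side, since a single pair could not pass after adjustment. The tallies thus say little about levels and correlations. The log2 ratio of miR-181b-5p to miR-181d-5p ran from 0.97 to 1.05 when single hearts were left out, on both sides of 2-fold, and that of miR-181b-2-3p to miR-181b-1-3p from -1.25 to -0.62. Without the library as a replicate block, 104 hairpins were called with more 5p reads and 87 with more 3p, as with it, and no call of a miR-181 ratio changed. The correlation of miR-181d-5p with miR-181c-5p was -0.26 on plain library totals and between -0.50 and 0.35 without single hearts (-0.02 without heart 2, -0.50 without heart 4). That of miR-181a-1-3p with miR-181b-1-5p was 0.29 without heart 1 and -0.58 to 0.29 over all hearts left out. Without heart 6, that of miR-181a-2-5p with miR-181b-2-5p was -0.074 (range -0.074 to 0.62) and that of miR-181a-2-3p with miR-181b-2-5p -0.20 (range -0.20 to 0.94). With no filter on low counts, miR-181c-3p was no longer called as varying beyond counting (chi-square adjusted p = 0.0626). Its counts and its unadjusted chi-square p of 0.0172 were the same there, and only the adjustment ran over more miRNAs. Why the other values changed was not tested. Depth limits the 3p arms of miR-181b and miR-181d, with at most 11 reads in a library.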
